A study of Mus musculus with 6 samples.

Results

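Carbonic anhydrases and aquaporins were examined in colorectal tissue of colitis mice that received berberine (BBR) or sulfasalazine (SASP). The 10 genes were taken by symbol from a table of 18268 genes, and comprised 7 carbonic anhydrases (Car1, Car2, Car3, Car4, Car8, Car12 and Car13) and 3 aquaporins (Aqp1, Aqp4 and Aqp8). Adult male C57BL/6 mice received dextran sulfate sodium (DSS), which injures the gut lining, over 7 days, and were gavaged with a drug on 6 days. BBR, a plant alkaloid, was given to 3 mice, and SASP, an aminosalicylate prodrug in clinical use against ulcerative colitis, to the other 3, at a higher daily dose than BBR. All 6 mice therefore had DSS-induced colitis, and each difference below is between the drug groups, since neither healthy nor untreated colitis mice were analysed here. The study's text speaks of rectal samples for BBR and of colon samples for SASP, while the labels call all of them colorectal. A difference in gut site, if there was one, cannot be told apart from the drug. Mice within a group were numbered in accession order.

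Carbonic anhydrases convert carbon dioxide and water into bicarbonate and protons. In the colon this reaction supplies the ions that apical exchangers trade for sodium and chloride, and water follows the absorbed salt. Aquaporins are membrane channels that let water, and in some members other small molecules, cross cells. Surface colonocytes are known for their Car1, Car2, Car4 and Aqp8, whereas Aqp1 is best known from endothelium and red blood cells, and Car3 from fat and skeletal muscle.

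Levels are FPKM, fragments scaled to transcript length and to the mapped reads of the library, so that levels of different genes may be compared. Changes are differences of log2(FPKM + 1), BBR minus SASP, and they understate the change of genes with low values. Of the 10 genes, 9 reached 1 FPKM in at least 3 samples and were tested with limma in a fit of 12072 genes. Car3 did not and is described by its values. An adjusted p-value under 0.05 was called a difference. Of all 12072 tested genes 8.86% passed, with 461 (3.82%) higher and 608 (5.04%) lower in BBR mice. Nothing in the labels says whether mice shared a cage or litter, so the p-values measure the spread between these mice.

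Aqp1 was higher in BBR mice and was the only 1 of the 9 tested genes that passed (11.1%, against 8.86% of all tested genes, or 3.82% of them higher and 5.04% lower). Car1 and Car2 were higher in each BBR mouse than in any SASP mouse, and Car8 and Car13 lower, but none of these 4 passed. In total the groups did not overlap for 5 of the 9 genes (55.6%), where the same held for 37.9% of all tested genes. At an unadjusted p under 0.05 these same 5 genes were counted, against 31.8% of all tested genes. The change was positive in 5 of the 9 and negative in 4, where 60.8% of all tested genes had a positive change, with a median of 0.20 beside 0.10 over all tested genes. Car4 and Aqp8, the most abundant gene of each family over the 6 mice, overlapped between the groups.

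**Figure D1:**
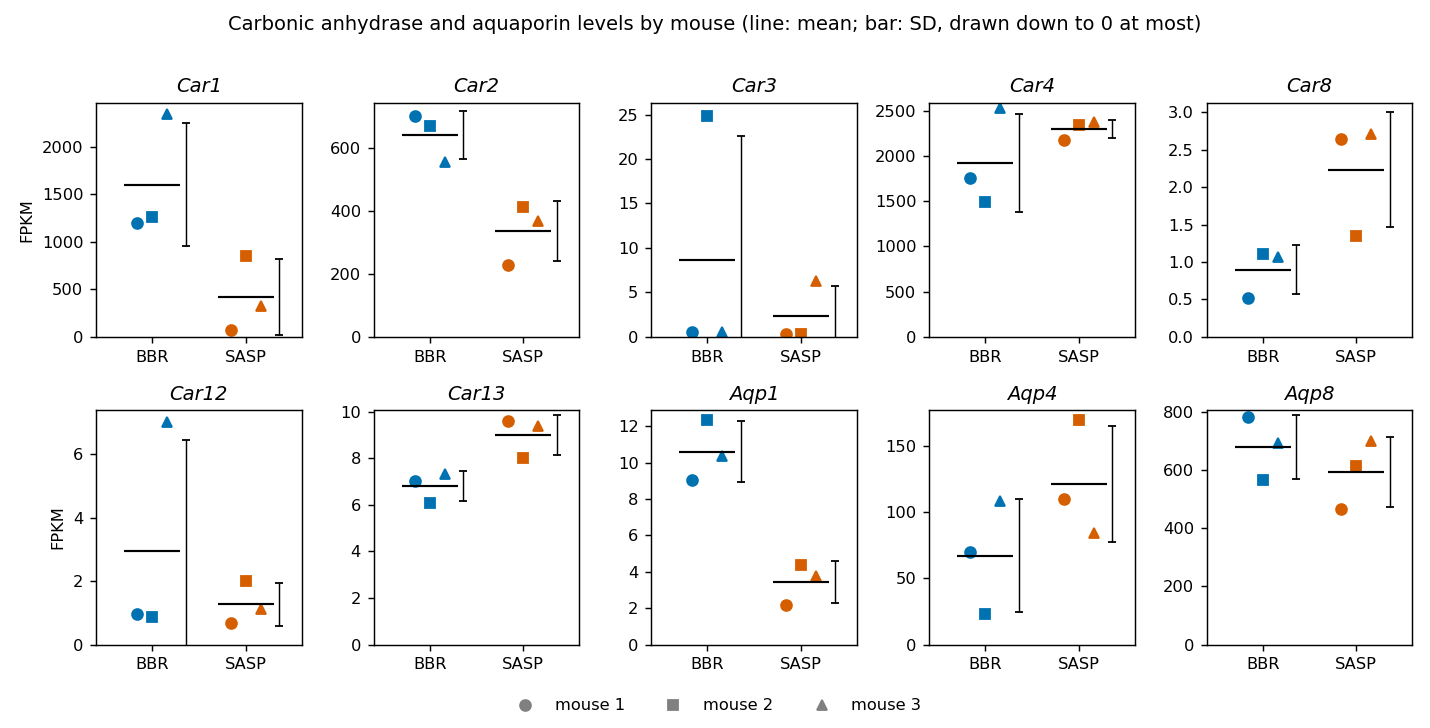
FPKM (vertical axes, linear and starting at 0) of the 10 genes in 3 BBR mice (blue) and 3 SASP mice (orange), with symbols for mouse 1, 2 and 3, lines for group means and bars for the SD. The groups are apart for Car1, Car2, Car8, Car13 and Aqp1, Car3 is high in BBR mouse 2 and SASP mouse 3, and Car12 is high in BBR mouse 3 alone.

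In BBR mice, mean levels fell in the order Car4, Car1, Aqp8, Car2, Aqp4, Aqp1, Car3, Car13, Car12 and Car8, from 1925 to 0.897 FPKM. In SASP mice the order was Car4, Aqp8, Car1, Car2, Aqp4, Car13, Aqp1, Car3, Car8 and Car12, from 2298 to 1.27 FPKM. Several neighbours in these orders had overlapping ranges. In BBR mice this held for Car4 and Car1, for Aqp8 and Car2, and for each successive pair from Aqp1 down to Car8. In SASP mice it held for Aqp8, Car1 and Car2 in succession, and from Aqp1 downward. By mean level over all mice, Car4 ranked 13 and Car1 35 among the 12072 tested genes, while Car8 ranked 11227.

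Car1, a cytosolic carbonic anhydrase of colonocytes and red blood cells, was at 1200.3, 1261 and 2345 FPKM in BBR mice 1 to 3 and at 71.8, 853 and 328 FPKM in SASP mice 1 to 3. The lowest BBR mouse exceeded the highest SASP mouse, but SASP mice spread widely around a mean of 417 ± 398 FPKM (SD, n = 3). The log2 change was 2.48 (SE 0.82, 95% interval 0.53 to 4.43), and limma gave an adjusted p of 0.0950. The change was 1.53 without SASP mouse 1, the lowest sample, and 3.30 without SASP mouse 2, and neither fit passed. With array quality weights it was 1.97 and passed (limma adjusted p = 0.00774), as did 7126 of all genes.

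The level of Car1 ran beside that of smooth muscle markers. Mice ordered by Car1 stood in the same order as by the summed FPKM of 10 smooth muscle genes, which was 2888, 3046 and 6808 in BBR mice 1 to 3 and 757, 2321 and 1724 in SASP mice 1 to 3. The ratio of Car1 to this sum was 0.416, 0.414 and 0.344 in BBR and 0.0948, 0.367 and 0.190 in SASP mice, which overlapped. When a score of smooth muscle genes entered the limma fit, the Car1 change was 0.21 (adjusted p = 0.852), and 19 of all genes passed in that fit. The smooth muscle sum was itself higher in each BBR mouse than in any SASP mouse, so this score and the drug can hardly be told apart. With a score of epithelial genes instead, the Car1 change was 4.24 (limma adjusted p = 0.0710). Relative to the summed FPKM of 10 epithelial genes, Car1 was still higher in each BBR mouse (0.189 to 0.386) than in any SASP mouse (0.0107 to 0.148). In bulk tissue, fewer cells of a type and less RNA per cell cannot be told apart. Of 8 red cell markers 7 were in the table and none of the 4 tested passed, and their sums overlapped at 15.8 to 33.3 FPKM with BBR and 5.36 to 68.3 FPKM with SASP.

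Car2, the fast cytosolic enzyme found in many epithelia, was at 703, 669 and 556 FPKM in BBR mice 1 to 3. It was at 230.0, 413 and 369 FPKM in SASP mice 1 to 3. The groups did not overlap, and the means were 643 ± 77.0 and 337 ± 95.5 FPKM (SD, n = 3 each). The log2 change of 0.96 (SE 0.23, 95% interval 0.41 to 1.52) narrowly missed the threshold in limma (adjusted p = 0.0503). It passed with quantile normalization (adjusted p = 0.0471), with median-ratio scaling (0.0436), with array quality weights (0.000732) and without BBR mouse 3 (0.0224), all in limma. Of all genes 7126 passed with array weights and 4051 without BBR mouse 3. Car2 did not pass without any other mouse (limma adjusted p = 0.0634 to 0.129) or with no filter (0.0845). Nor did it pass with the smooth muscle (0.364) or the epithelium covariate (0.123). Per epithelial marker FPKM, Car2 was 0.0915 to 0.113 in BBR and 0.0343 to 0.0719 in SASP mice.

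Car4 is anchored in the apical membrane of colonocytes, where it works at the cell surface. It was at 1754, 1491 and 2530 FPKM in BBR mice 1 to 3 and at 2182, 2341 and 2372 FPKM in SASP mice 1 to 3. BBR mice 1 and 2 lay below every SASP mouse and BBR mouse 3 above, so that the groups overlapped. The log2 change was -0.29 with a 95% interval of -0.84 to 0.26 (limma adjusted p = 0.410). Without BBR mouse 3 it was -0.51 and passed (adjusted p = 0.0296), and it also passed with array weights (-0.43, adjusted p = 0.00670). The array weights gave BBR mouse 3 the lowest weight (0.129), so both fits reduce the part of the same mouse. Of all genes 4051 and 7126 passed in these fits, and Car4 passed in no other fit (limma adjusted p = 0.343 to 0.892). BBR mouse 3 also stood apart in surface colonocyte markers, whose sum over 8 genes was 2466 and 1945 FPKM in BBR mice 1 and 2, 5012 FPKM in BBR mouse 3 and 4654 to 5299.8 FPKM with SASP. Krt20 and Plac8 carried much of this sum, yet in BBR mouse 3 both lay below every SASP mouse. Krt20 was at 551 FPKM there against 623 to 899 FPKM with SASP, and Plac8 at 2373 against 2834 to 3429 FPKM. Guca2a went the other way, at 1055 FPKM in BBR mouse 3 against 61.9 to 232 FPKM with SASP. Over the list 4 genes had positive and 4 negative changes, with a median of -0.21 and none passing in limma (3 lower at an unadjusted p under 0.05). The ratio of Car4 to the sum was 0.711, 0.767 and 0.505 with BBR and 0.432, 0.503 and 0.448 with SASP. The part of these markers in the Car4 values was not tested.

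Together Car1, Car2 and Car4 made up 98 to 98.7% of the summed FPKM of the 16 carbonic anhydrase genes in the table. The Car1 and Car4 shares did not overlap between the groups, whereas those of Car2 did. Car1 contributed 32.4, 36.1 and 42.6% in BBR mice and 2.85, 23.3 and 10.5% in SASP mice. Car4 contributed 47.4, 42.7 and 46.0% in BBR mice and 86.6, 63.9 and 76.1% in SASP mice. Car2 contributed 19.0, 19.2 and 10.1% with BBR and 9.13, 11.3 and 11.8% with SASP. A larger share of one gene lowers those of the others. The family sum itself overlapped, at 3704, 3489 and 5503 FPKM with BBR and 2519, 3662 and 3116 FPKM with SASP. The shares are given as a description and were not tested.

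**Figure D2:**
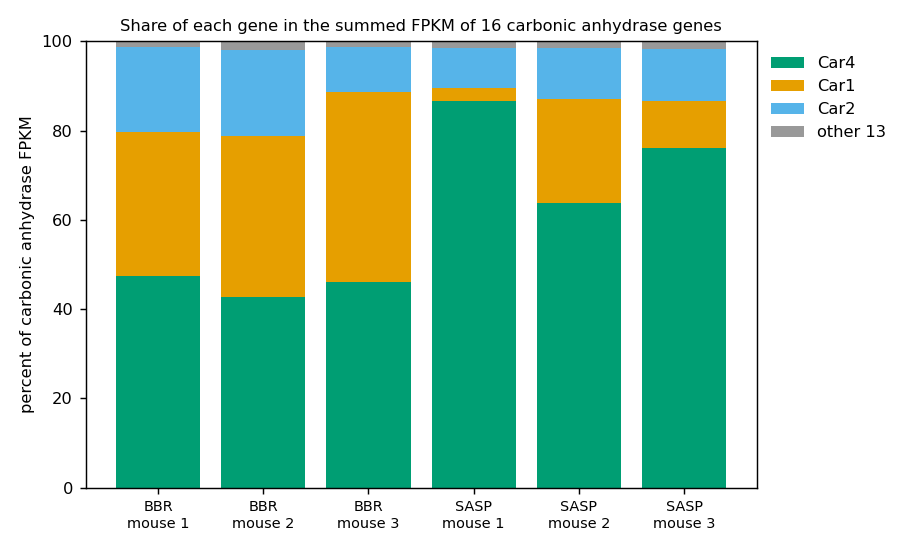
Percent (vertical axis, from 0 to 100) of the summed FPKM of 16 carbonic anhydrase genes contributed by Car4, Car1, Car2 and the other 13 genes, with 1 bar for each mouse. Car4 takes 42.7 to 47.4% in BBR mice and 63.9 to 86.6% in SASP mice, and Car1 takes 32.4 to 42.6% and 2.85 to 23.3%.

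Car13 and Car8 were the carbonic anhydrases lower in BBR mice. Car13, a further cytosolic enzyme, was at 7.03, 6.08 and 7.32 FPKM in BBR mice 1 to 3 and at 9.62, 8.0 and 9.37 FPKM in SASP mice 1 to 3. Its spread was the smallest of the carbonic anhydrases in BBR mice, with a coefficient of variation of 9.52%, and it was 9.69% in SASP mice. The groups did not overlap, but the change of -0.36 (SE 0.13) did not pass (limma adjusted p = 0.113). It passed only without BBR mouse 3 (-0.40, adjusted p = 0.0459) and with array weights (-0.37, adjusted p = 0.00364), fits in which 4051 and 7126 of all genes passed.

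Car8 encodes a carbonic anhydrase-related protein that has lost the enzymatic activity and is known for binding an inositol trisphosphate receptor. It was at 0.520, 1.10 and 1.07 FPKM in BBR mice 1 to 3 and at 2.64, 1.35 and 2.71 FPKM in SASP mice 1 to 3. The nearest values of the groups, 1.10 and 1.35, were close. These levels rest on roughly 33 to 180 reads per mouse, an estimate from the smallest values in the table. The change of -0.75 (SE 0.23, 95% interval -1.30 to -0.21) did not pass in limma (adjusted p = 0.0813). It was -1.23 with a pseudocount of 0.1 and -1.32 with a pseudocount of 0.01, so its size depends on that constant. With array weights, which rest largely on BBR mouse 1 and SASP mouse 3, it was -1.15 and passed (adjusted p = 0.000678), as did 7126 of all genes.

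Car12 was high in a single mouse, and Car3 in 1 mouse of each group. Car12, a membrane enzyme that faces the outside of the cell, was at 0.970, 0.870 and 7.01 FPKM in BBR mice 1 to 3 and at 0.690, 2.0 and 1.11 FPKM in SASP mice 1 to 3. BBR mouse 3 was the 1 sample above 2.0 FPKM. The change was 0.49 (95% interval -0.84 to 1.82, limma adjusted p = 0.573) with it and -0.20 without it. Array weights gave -0.09 and the smooth muscle covariate -0.82, so no direction can be given.

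Car3, an enzyme of low activity that is abundant in fat and skeletal muscle, was at 0.530, 24.8 and 0.520 FPKM in BBR mice 1 to 3. It was at 0.310, 0.300 and 6.31 FPKM in SASP mice 1 to 3. BBR mouse 2 and SASP mouse 3 were high and the remaining 4 mice were at about 9 to 15 reads. With no filter the change was 0.76 (SE 1.26, limma adjusted p = 0.723). The same 2 mice were high in adipocyte markers. Over 6 genes, all in the table and none reaching the filter, the sum was 0.460, 69.6 and 0.660 FPKM in BBR mice 1 to 3 and 0.430, 0.830 and 17.8 FPKM in SASP mice 1 to 3. Adipoq, the adiponectin gene, was listed at 0 in BBR mouse 3 and SASP mice 1 and 2, at 0.0900 FPKM in BBR mouse 1, at 6.85 FPKM in BBR mouse 2 and at 1.84 FPKM in SASP mouse 3. Skeletal muscle markers did not follow Car3, with sums of 8.67, 9.22 and 21.4 FPKM with BBR and 10.4, 12.3 and 7.33 FPKM with SASP.

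The genes Car13, Car1, Car3 and Car2 are neighbours in the RefSeq annotation of GRCm38.p6, in this order on a single chromosome and with 0 other protein-coding genes between them. Their levels did not move as a block. Car1 and Car2 were higher in each BBR mouse, Car13 was lower, and Car3, between Car1 and Car2, was high in 1 mouse of each group. Car1, Car2 and Car13 did not pass in the main limma fit, and Car3 was not tested there. Groups that do not overlap were also seen for 37.9% of all tested genes.

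**Figure D3:**
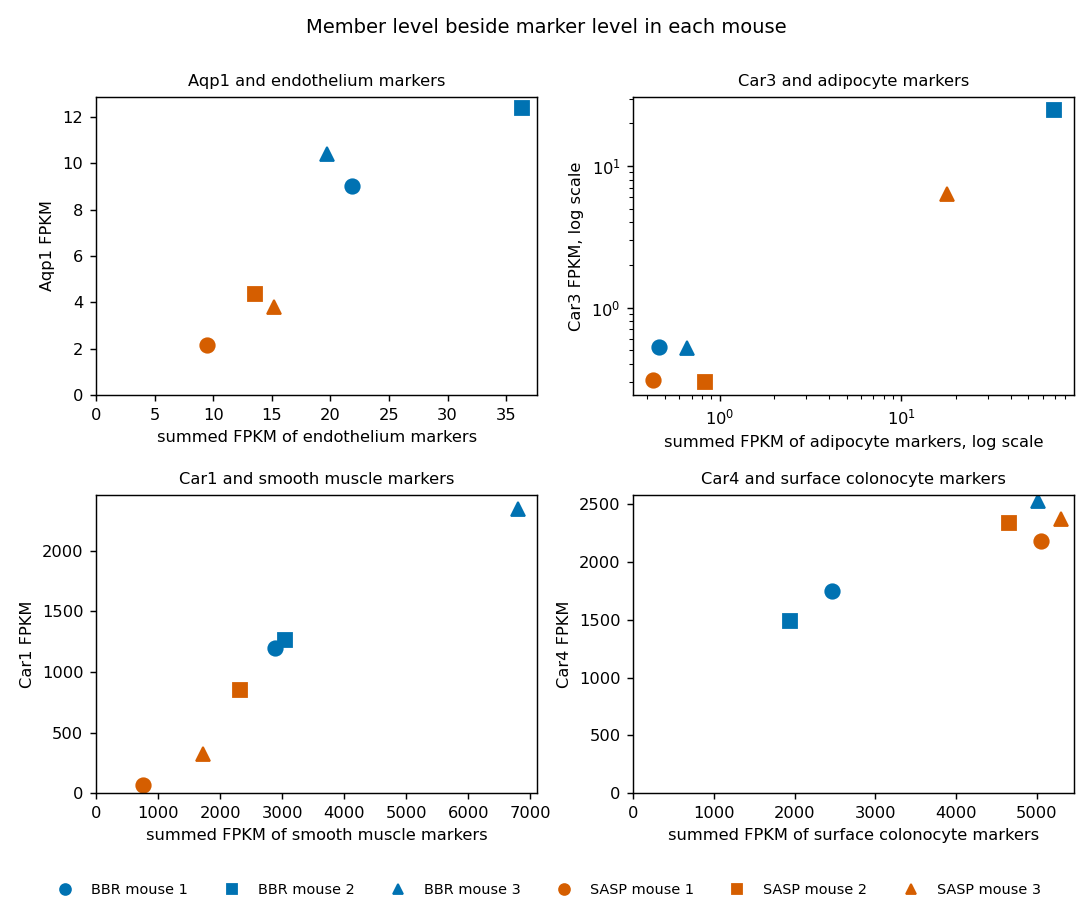
FPKM of Aqp1, Car3, Car1 and Car4 (vertical axes) against the summed FPKM of endothelium, adipocyte, smooth muscle and surface colonocyte markers (horizontal axes; both axes of the Car3 panel are log scales), with 1 point per mouse. Aqp1 and endothelium markers are both higher in the 3 BBR mice, Car3 and adipocyte markers are high in the same 2 mice, Car1 and smooth muscle markers place the mice in the same order, and BBR mouse 3 stands with the SASP mice for Car4.

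Aqp1, the water channel of endothelium and red blood cells, was at 9.03, 12.4 and 10.4 FPKM in BBR mice 1 to 3 and at 2.16, 4.37 and 3.79 FPKM in SASP mice 1 to 3. The lowest BBR value was above the highest SASP value, and the means were 10.6 ± 1.68 and 3.44 ± 1.15 FPKM (SD, n = 3 each). The log2 change was 1.41 (SE 0.22, 95% interval 0.88 to 1.94), a 2.66-fold higher FPKM + 1, and passed in limma (adjusted p = 0.0187). It rested on roughly 100 to 534 reads per mouse. The call was lost without BBR mouse 1 (1.51, adjusted p = 0.0596), BBR mouse 2 (1.30, 0.0542), SASP mouse 1 (1.18, 0.0510) or SASP mouse 3 (1.48, 0.0740), and with the smooth muscle covariate (0.96, 0.211). Of all genes 133, 376, 127, 96 and 19 passed in these fits, in the same order, against 1069 in the main fit. The Aqp1 change was 1.18 to 1.57 on leaving out any mouse.

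The summed level of endothelial markers was higher in each BBR mouse, as was Aqp1. Of 8 genes, all in the table, 7 were tested and 7 had a positive change, with a median of 0.59, where 60.8% of all tested genes had a positive change. Of the 7, 1 passed (14.3%, against 8.86% of all tested genes) and 3 had an unadjusted p under 0.05 in limma. The gene that passed was Cldn5, a tight junction gene of endothelium, with a change of 1.05 (limma adjusted p = 0.0354), a call that was lost on leaving out any mouse but BBR mouse 3. The sum of the 8 genes was 19.7 to 36.3 FPKM with BBR and 9.51 to 15.2 FPKM with SASP. The ratio of Aqp1 to this sum was 0.415, 0.340 and 0.528 in BBR and 0.227, 0.323 and 0.250 in SASP mice, so that the groups remained apart by a small gap. Mesothelial markers, of another cell type that holds Aqp1, summed to 0.140 to 2.01 FPKM with BBR and 0.350 to 0.920 FPKM with SASP, with none of 4 genes reaching the filter.

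Aqp8, the main water channel of the colonocyte surface, was at 783, 565 and 694 FPKM in BBR mice 1 to 3 and at 465, 615 and 702 FPKM in SASP mice 1 to 3. The groups overlapped over most of their range, with means of 681 ± 109 and 594 ± 119.6 FPKM (SD, n = 3 each). The change of 0.20 had a 95% interval of -0.27 to 0.68 (limma adjusted p = 0.506). Aqp8 supplied 85.1 to 92.7% of the summed aquaporin FPKM with BBR and 77.5 to 88.6% in SASP mice.

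Aqp4, a water channel of basolateral membranes and best known from brain astrocytes, was at 69.7, 23.3 and 108 FPKM in BBR mice 1 to 3. It was at 109.7, 169 and 84.0 FPKM in SASP mice 1 to 3. BBR mouse 2 was lowest and SASP mouse 2 highest, and the groups overlapped. The change was -1.03 with a wide 95% interval of -2.31 to 0.25 (limma adjusted p = 0.230), and it was -0.41 without BBR mouse 2 and -1.50 without BBR mouse 3, where it did not pass either. The ratio of Aqp4 to Aqp8 was 0.0891, 0.0412 and 0.156 in BBR and 0.236, 0.275 and 0.120 in SASP mice, which overlapped.

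**Figure D4:**
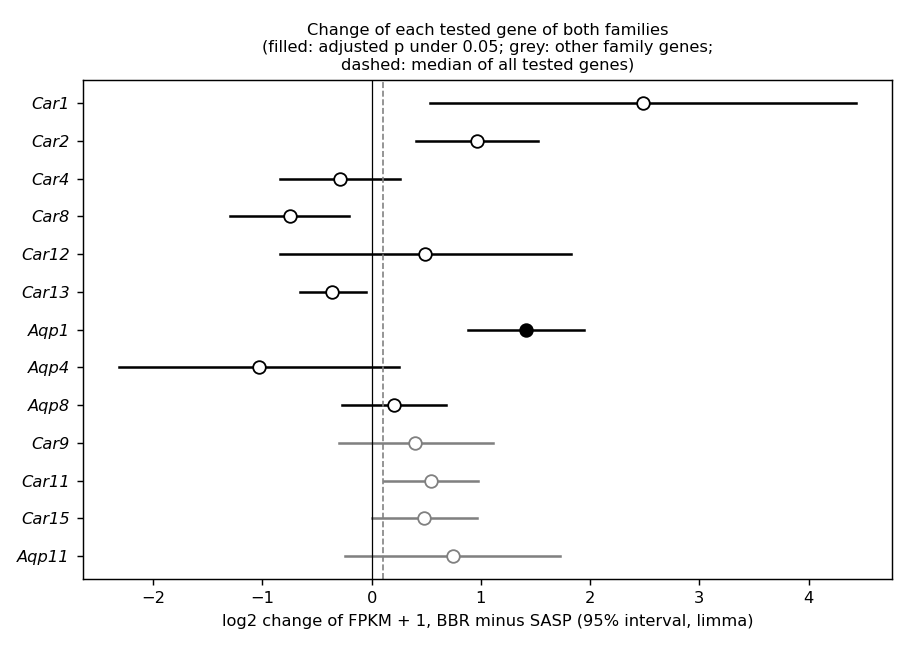
Log2 change of FPKM + 1, BBR minus SASP (horizontal axis), with 95% limma intervals for the 9 tested members (black) and 4 other tested genes of both families (grey); filled points passed at an adjusted p under 0.05 and the dashed line marks the median of all tested genes, 0.10. Aqp1 at 1.41 is the only filled point, and the intervals of Car4, Car12, Aqp4 and Aqp8 cross 0.

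Promoter sequences of 4 of the 10 genes (Car4, Car12, Aqp1 and Aqp8) were held by the RefSeq-derived table of GRCm38.p6. Those of Aqp1, the gene that passed, and of Aqp8, the most abundant aquaporin, are shown for contrast. Each run covers the 250 bases before the start of the gene on the plus strand, chr6:55336049-55336298 for Aqp1 and chr7:123462044-123462293 for Aqp8. Capitals mark matches to the motifs searched.
Aqp1: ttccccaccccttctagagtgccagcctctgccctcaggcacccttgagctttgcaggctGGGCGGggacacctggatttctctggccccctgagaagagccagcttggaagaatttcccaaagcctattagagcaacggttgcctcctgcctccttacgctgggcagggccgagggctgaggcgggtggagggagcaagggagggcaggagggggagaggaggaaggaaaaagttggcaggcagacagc
Aqp8: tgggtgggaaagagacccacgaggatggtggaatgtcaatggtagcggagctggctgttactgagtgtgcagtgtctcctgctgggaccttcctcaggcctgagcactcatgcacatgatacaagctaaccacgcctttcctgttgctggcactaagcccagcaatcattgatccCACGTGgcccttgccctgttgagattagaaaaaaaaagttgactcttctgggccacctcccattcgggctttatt
Both strands were searched for 5 motifs. The E-box, an element bound by clock factors among others, was spelled CACGTG. The GC box was spelled GGGCGG. The core promoter box was spelled TATAAA. The site of CDX factors was spelled TTTATNG, and that of GATA factors was spelled AGATAA. Aqp8 held the E-box, 75 to 70 bases before the start, as did 6.02% of all 32851 promoter windows of this length. Aqp1 held a GC box, 190 to 185 bases before the start (32.7% of all windows), and Car12 held another. The letters of the other 3 motifs were in none of the 4 windows, where 9.81 to 12.4% of all windows hold them. GC content was 62.0% for Aqp1 and 52.4% for Aqp8. A match is a description of these letters and does not show that a factor binds there.

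Most other genes of both families did not reach the filter. Of 9 other carbonic anhydrases 3 were tested, and of 8 other aquaporins a single gene, Aqp11, was tested. None of these 4 passed in the main limma fit, and 1 (Car11) had an unadjusted p under 0.05. Car9, a membrane enzyme known for its induction by low oxygen, was at 34.1, 29.3 and 51.3 FPKM with BBR and 20.5, 41.7 and 25.2 FPKM with SASP, which overlapped (change 0.40, adjusted p = 0.374). Car11, a further catalytically inactive relative, was at 1.36, 1.84 and 1.32 FPKM with BBR and 0.400, 0.980 and 0.830 FPKM with SASP (change 0.54, adjusted p = 0.0974). Car15 and Aqp11 had changes of 0.48 and 0.74 (adjusted p = 0.158 and 0.257). Aqp11 passed without BBR mouse 3 (1.17, adjusted p = 0.0276), as did 4051 of all genes. With array weights Aqp11 (1.09, limma adjusted p = 0.0015) and Car11 (0.42, 0.0128) passed, as did 7126 of all genes, but Car9 and Car15 did not.

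Transporters that exchange bicarbonate, protons, chloride and their companions were examined as the partners of both families. Of 44 listed genes 43 were in the table and 31 were tested, and 5 passed (16.1%, against 8.86% of all tested genes). All 5 were higher in BBR mice, and 0 were lower, where 4 lower genes had an unadjusted p under 0.05 in limma. The median change was 0.30, with 22 positive and 9 negative changes (60.8% positive over all tested genes). The count was 8 with quantile normalization, 9 with median-ratio scaling, 23 with array weights, 2 with no filter, 19 without BBR mouse 3 and 0 to 2 without any other mouse. Over all genes the same fits gave 1737, 1713, 7126, 608, 4051 and 96 to 522, against 1069 in the main fit. Slc4a4, which carries sodium with bicarbonate across the basolateral membrane, was at 46.5, 33.7 and 41.9 FPKM with BBR and 15.9, 8.36 and 16.5 FPKM with SASP, a change of 1.56 (SE 0.26, adjusted p = 0.0205). Slc4a2, a chloride-bicarbonate exchanger, was at 52.0, 42.4 and 36.9 FPKM with BBR and 18.8, 26.2 and 21.3 FPKM with SASP, a change of 0.96 (SE 0.17, adjusted p = 0.0245). In both genes every BBR mouse lay well above every SASP mouse. Slc9a2, a sodium-proton exchanger, changed by 0.57 (adjusted p = 0.0394). The other two were Slc26a11, an anion exchanger, and Slc16a1, a carrier of short-chain acids such as butyrate, with changes of 0.74 and 1.13 (adjusted p = 0.0418 and 0.0444). All 5 calls were lost without BBR mouse 1, SASP mouse 1 or SASP mouse 3, and with the smooth muscle or the epithelium covariate. Their changes stayed positive, and with the smooth muscle covariate they were 1.90 for Slc4a4, 0.92 for Slc4a2, 0.51 for Slc9a2, 0.89 for Slc26a11 and 1.37 for Slc16a1. The calls of Slc9a2, Slc26a11 and Slc16a1 were also lost on leaving out BBR mouse 2 or SASP mouse 2 and with no filter, and that of Slc4a2 without BBR mouse 2.

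Clcn2 and Atp12a, the lower transporters with the smallest p, did not pass in limma, although neither overlapped between the groups. Without BBR mouse 3 both passed (Clcn2 -0.68, adjusted p = 0.0157, and Atp12a -1.45, adjusted p = 0.00574), but so did 4051 of all 12072 tested genes. Both also passed with array weights, where 7126 of all genes did. On leaving out any other mouse, and with the smooth muscle or the epithelium covariate, neither passed. The chloride channel gene Clcn2 was at 56.5, 42.0 and 59.8 FPKM with BBR and 73.6, 84.0 and 78.1 FPKM with SASP (change -0.58, adjusted p = 0.0576). The colonic proton-potassium pump gene Atp12a was at 247, 359 and 589 FPKM with BBR and 813, 696 and 966 FPKM with SASP (change -1.13, adjusted p = 0.0657).

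Genes most like the 3 most abundant members were found by Pearson's r of log2(FPKM + 1) over the 6 mice. For Car4 they were Nfkbiz, Hif1a and Ly6m (r = 0.995 each), which like Car4 were low in BBR mice 1 and 2. For Car1 they were Flot1, Tmem185b and Ctsl (0.990, 0.985 and 0.984), and for Aqp8 Kctd6, Zfand3 and Zfyve16 (0.984, 0.962 and 0.952). Of the other tested genes, 209 reached 0.9 with Car4, 459 with Car1 and 17 with Aqp8. Among the members themselves r was 0.95 for Aqp1 and Car2, 0.90 for Car1 with either of them, 0.86 for Car4 and Aqp4, and -0.94 for Aqp1 and Car13. These values are over the same libraries, which also carry the group difference.

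Across libraries, the epithelial marker sum was similar at 5947 to 6350.2 FPKM for BBR and 5747 to 6709.9 FPKM for SASP mice. All 10 genes were tested, with 2 called higher and 1 lower (30.0%, against 8.86% of all tested genes), so the similar sum covers genes that differed in both directions. Posterior Hox genes, which mark the hindgut, were present at 208 to 413 and 244 to 299 FPKM, and squamous markers of the anal canal were nearly absent (0.540 to 2.79 and 0.910 to 1.51 FPKM). Smooth muscle genes had positive changes in 10 of 10 cases with a median of 1.32, of which 0 passed in limma and 8 had an unadjusted p under 0.05. Goblet cell marker sums were 12185 to 23746 and 10135 to 15064 FPKM. Leukocyte markers summed to 21.3 to 32.1 FPKM with BBR and 34.2 to 77.2 FPKM with SASP, lower in 7 of 7 tested genes with none passing and 4 at an unadjusted p under 0.05. BBR mouse 3 stood apart, with correlations across genes of 0.949 and 0.953 to the other BBR mice, which were at 0.987 to each other, and 0.982 to 0.989 among SASP mice. Without it 4051 of all genes passed.

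**Figure D5:**
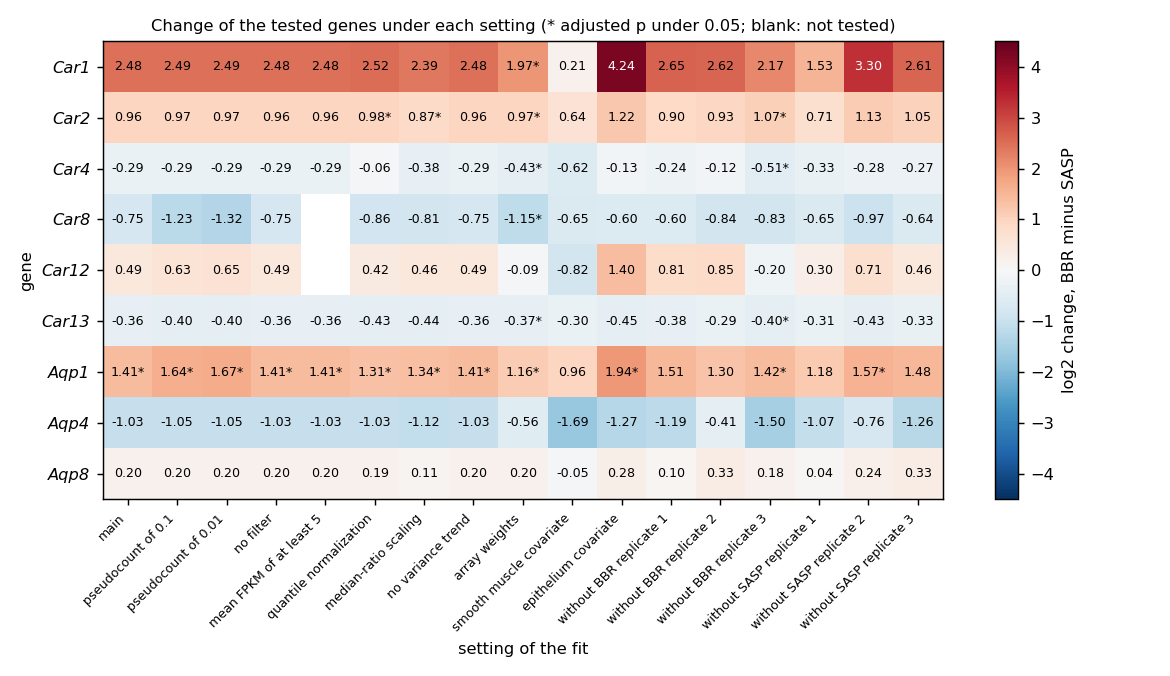
Log2 change, BBR minus SASP, of the 9 tested members (rows) in each fit (columns), as numbers and colour, with an asterisk for an adjusted p under 0.05 and blank cells where a gene was not tested. Aqp1 stays positive throughout but has an asterisk in 12 of 17 fits, and Car12 changes sign in 3 fits.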

How the data were processed

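RNA from colorectal tissue of 6 DSS-treated mice was sequenced, 3 receiving BBR and 3 SASP, grouped by the treatment label. The methods of the study, which name BBR-treated and untreated but not SASP samples, describe depletion of ribosomal RNA, single-end reads filtered by SOAPnuke, alignment by Bowtie2 and gene levels from RSEM; the submitters' processing notes name Bowtie2 2.2.5, RSEM 1.2.12 and mm9. The methods name an Illumina kit for that depletion and a BGISEQ sequencing platform, where the labels name an Illumina TruSeq kit. The labels describe the tissue as colorectal, where the methods say rectal and the study's results say colon for the SASP samples. The deposited table holds FPKM calculated by the authors, rounded to 2 decimals, with a column per mouse. RSEM divides shared reads, so close paralogs are less certain.

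FPKM are not counts, so log2(FPKM + 1) was fitted with limma 3.58.1 (R 4.3.3) using moderated variances with a trend on mean level, two-sided tests and Benjamini-Hochberg adjustment over all 12072 genes with at least 1 FPKM in at least 3 samples. Intervals are 95% limma intervals. Alternatives were other pseudocounts, filters, scalings and array weights, each mouse left out, and the centred mean log2 level of the smooth muscle or epithelium markers as a covariate. Depth, estimated at 16400000 to 18200000 reads from short genes above 0 in a single mouse, gives the approximate reads per gene (longest GENCODE M21 transcript). This limits genes near 1 FPKM, and covers counting error only. Genes named outside the members were all tested family genes, up to 3 transporters per direction by adjusted p, and the 3 genes closest in pattern to each of the 3 most abundant members. Slc26a11, Slc16a1, Adipoq, Cldn5, Krt20, Plac8, Guca2a and the genes of the closing observations were chosen after their values were seen. A gene that the rule selects is not reported here. Members and lists were chosen with earlier results of these data known. Coordinates are of GRCm38.p6, not of the build used for alignment.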

Additional observations from a re-analysis of the deposited data

How the results depend on the processing

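Of 151 pairs of a member and an alternative, 128 kept direction and side of the threshold. All genes: 1069 differed, against 608 with no filter, 1737 with quantile normalization, 1713 with median-ratio scaling, 7126 with array weights, 19 with the smooth muscle covariate and 3837 at an unadjusted p of at most 0.05; leaving out 1 mouse gave 96 (without SASP mouse 3) to 4051 (without BBR mouse 3). The split of 461 higher and 608 lower turned to 4636 and 2490 under array weights, to 567 and 231 under the epithelium covariate and to 2682 and 1369 without BBR mouse 3, but was 14 and 82 without SASP mouse 3. Members: 1 passed, against 2 with quantile normalization or median-ratio scaling, 6 with array weights, 5 at an unadjusted p of at most 0.05 and 0 with the smooth muscle covariate (1 at an unadjusted p under 0.05 in limma); leaving out 1 mouse gave 0 to 4, and 0 when the mouse was BBR 1, BBR 2, SASP 1 or SASP 3 (3 or 4 at an unadjusted p under 0.05). The median change of 0.20 was 0.48 at a mean FPKM of at least 5, where Car3 enters and Car8 and Car12 drop out, -0.09 with array weights, -0.30 with the smooth muscle covariate and -0.20 to 0.33 on leaving out 1 mouse. Signs turned for Car12 with array weights (-0.09), with the smooth muscle covariate (-0.82) and without BBR mouse 3 (-0.20; up to 0.85 on leaving out another mouse), and with that covariate for Aqp8 (-0.05), Car9 (-0.34) and Slc26a3 (-0.24); the cause was not tested. Median-ratio scaling and quantile normalization moved the median of all genes from 0.10 to 0.02 and 0.04. No paired analysis was possible because the labels give the groups no shared replicate numbers. Low levels, and so few reads in most mice, limit Car3, Car8 and Car12.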

Other observations

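Several apical transport genes of the partner list, chosen here after their values were seen, were low in BBR mice 1 and 2 but not in BBR mouse 3, as Car4 was. Clca4b, of a family linked to chloride conductance, was at 2.59, 0.430 and 1105 FPKM in BBR mice 1 to 3 and at 1658, 1186 and 861 FPKM in SASP mice 1 to 3. Clca4a, its close paralog with which reads may be shared, was at 22.9, 17.5 and 338 FPKM with BBR and 233, 276 and 274 FPKM with SASP. Slc9a3, the main apical sodium-proton exchanger, was at 13.4, 2.15 and 40.5 FPKM with BBR and 36.6, 37.9 and 24.1 FPKM with SASP. With all mice none of these 3 genes passed in limma (adjusted p = 0.124, 0.171 and 0.273). Since they were chosen for the contrast of BBR mouse 3 with the others, no fit without it is given.

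Slc26a3, the apical chloride-bicarbonate exchanger and likewise chosen after its values were seen, overlapped at 877, 618 and 1004 FPKM with BBR and 487, 792 and 746 FPKM with SASP (0.31, adjusted p = 0.434).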
